A study of Mus musculus with 10 samples.

Results

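A set of 72 genes, among the 18901 listed for mouse cells at different stages of reprogramming, was read in every induced pluripotent stem (iPS) library and almost not at all in fibroblasts or in partially reprogrammed cells. The members were chosen from the deposited expression values themselves: under 20 in each of the 4 fibroblast and pre-iPS libraries and 100 or more in each of the 6 iPS libraries. In all, 82 genes met both thresholds. The selection rule left out 10 of them by name, among them 5 Zscan4 genes and Dppa3. Because the rule used the difference between iPS cells and the other cells, that difference is described here and not tested. The rule did not compare the iPS lines or the passages with each other, and only those differences were tested. It did ask for 100 or more in every iPS library, so genes lower than that in 1 iPS line or passage were left out. Arg2 is an example, with 699 and 723 in the control but 94.2 in clone 2 at passage 5. The differences below therefore cover only genes that stayed above that limit.

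Some of these genes belong to 2 programmes that mouse pluripotent cultures are known for. The first is that of the 2-cell embryo, in which the genome is first transcribed. A small share of the cells of an embryonic stem cell culture enters a similar state for a time, and the homeobox factor Dux switches on its genes, among them Zfp352, the Zscan4 family and the Tcstv genes. The second is that of germ cells, whose genes are kept silent in somatic cells, several of them by methylation of CpG-rich promoters.

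Poly(A) RNA of 5 lines was sequenced in 10 libraries, 2 per line, all in a cross of mf1 and 129 mice. Oct4-GFP MEF are embryonic fibroblasts, here at passages 2 and 4, that carry a fluorescent reporter at the Oct4 locus and were grown in DMEM with 10% FCS. The other 4 lines came from reprogramming of such fibroblasts with retroviruses for Oct4, Sox2, Klf4 and c-Myc and were read at passages 5 and 25, the iPS lines after growth in KSR+LIF medium. The pre-iPS line is partially reprogrammed: the study describes it as one in which the Oct4/GFP locus stays off and the transgenes stay on. The 'control' iPS line was obtained without, and clones 1 and 2, called 'rNetrin-1-derived', with, recombinant Netrin-1, a secreted guidance protein, in the medium during reprogramming. Each iPS line is 1 clone read at 2 passages, and passages of a clone are not independently derived clones. A p-value between lines below therefore measures a difference between particular clones, and an effect of rNetrin-1 cannot be told apart from differences between clones. In limma the difference was set against the spread between the 2 libraries of a line, taken over all 5 lines, MEF and pre-iPS included. The members have few reads in MEF and pre-iPS libraries, so which members were called can also rest on the spread there. The study's methods name both gelatin and irradiated MEF as supports for mouse iPS cells.

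The recovered depth was 38110410 to 52946856 reads on genes per library, and 1 read was worth 0.888 to 1.18 in the deposited unit, a read count brought to a common library size. The summed level of 10 fibroblast markers was 22234 to 38444 in iPS libraries and 23066 to 24051 in pre-iPS libraries, against 2993526 and 3138226 in MEF. The 8 pluripotency markers, Pou5f1 and Sox2 among them, which the retroviruses also carried, summed to 143774 to 191145 in iPS, 430679 and 457742 in pre-iPS and 2860 and 2356 in MEF libraries. Most of this sum is Pou5f1, with a mean of 404191 in pre-iPS and 99915 in iPS libraries. Sox2 was also higher in pre-iPS cells. Each of the other markers had a lower mean there than in iPS libraries, as Nanog with 330 and 4791. Control and clone 1 libraries had 753 to 2814 reads on each of 4 Y-linked genes and 140 to 328 on Xist. Clone 2 and pre-iPS libraries had 0 to 7 and 15713 to 22992. Any part of this sex-linked difference in the contrasts of clone 2 below was not tested. In RNA of whole cultures, fewer cells of a type and less RNA per cell cannot be told apart.

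The promoters of 6 members are printed because they belong to the members on which the contrasts below turn: Zfp352, Gm13078 and Gm12794 were lower in the rNetrin-1-derived clones than in the control, Rpl10l and Aurkc were higher in clone 2 than in clone 1, and Dazl fell with passage. Each window runs from 250 bases before to 50 bases after the RefSeq gene start on GRCm38.p6, 5′ to 3′ on the strand of the gene, with CpG dinucleotides in capitals.
Zfp352 (chr4:90218570-90218869, plus strand): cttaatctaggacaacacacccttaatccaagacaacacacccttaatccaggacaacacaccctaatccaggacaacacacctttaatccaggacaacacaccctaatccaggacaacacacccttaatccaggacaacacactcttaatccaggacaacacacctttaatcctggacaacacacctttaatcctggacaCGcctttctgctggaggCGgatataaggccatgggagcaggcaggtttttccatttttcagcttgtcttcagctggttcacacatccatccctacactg
Gm13078 (chr4:143719201-143719500, plus strand): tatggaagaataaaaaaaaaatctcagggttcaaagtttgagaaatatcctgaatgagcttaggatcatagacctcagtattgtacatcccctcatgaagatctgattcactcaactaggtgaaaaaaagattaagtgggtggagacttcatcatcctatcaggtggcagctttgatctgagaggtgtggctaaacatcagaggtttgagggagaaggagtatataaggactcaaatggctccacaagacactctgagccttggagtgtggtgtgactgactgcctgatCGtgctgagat
Gm12794 (chr4:101940157-101940456, plus strand): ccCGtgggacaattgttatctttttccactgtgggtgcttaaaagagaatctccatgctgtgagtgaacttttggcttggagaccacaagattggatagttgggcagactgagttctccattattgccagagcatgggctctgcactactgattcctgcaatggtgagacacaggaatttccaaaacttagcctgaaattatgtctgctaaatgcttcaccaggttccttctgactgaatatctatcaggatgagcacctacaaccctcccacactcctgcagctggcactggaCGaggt
Rpl10l (chr12:66284352-66284651, minus strand): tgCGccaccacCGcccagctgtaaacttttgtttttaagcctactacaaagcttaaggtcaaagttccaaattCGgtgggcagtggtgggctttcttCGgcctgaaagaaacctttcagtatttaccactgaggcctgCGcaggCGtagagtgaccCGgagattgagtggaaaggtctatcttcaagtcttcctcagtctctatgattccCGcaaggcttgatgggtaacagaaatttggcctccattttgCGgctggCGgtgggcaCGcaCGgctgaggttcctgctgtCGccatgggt
Aurkc (chr7:6995135-6995434, plus strand): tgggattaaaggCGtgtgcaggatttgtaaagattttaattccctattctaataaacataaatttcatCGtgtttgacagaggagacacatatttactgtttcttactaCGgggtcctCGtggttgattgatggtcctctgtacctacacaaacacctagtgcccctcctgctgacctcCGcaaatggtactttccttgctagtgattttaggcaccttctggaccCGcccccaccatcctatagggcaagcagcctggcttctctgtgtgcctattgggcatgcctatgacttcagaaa
Dazl (chr17:50293571-50293870, minus strand): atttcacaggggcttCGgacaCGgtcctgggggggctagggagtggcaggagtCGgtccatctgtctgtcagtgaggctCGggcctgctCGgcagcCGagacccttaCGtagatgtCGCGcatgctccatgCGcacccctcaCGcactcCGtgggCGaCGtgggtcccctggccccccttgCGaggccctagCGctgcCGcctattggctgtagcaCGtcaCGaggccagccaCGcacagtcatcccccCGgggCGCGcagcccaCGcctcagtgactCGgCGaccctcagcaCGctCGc
The first 3 windows hold 2, 1 and 2 CpG, against 13 in that of Rpl10l, 6 in that of Aurkc and 28 in that of Dazl. The Zfp352 window is in large part a short unit repeated before the gene start. Its GC content was 47.0%, and that of the Dazl window 68.7%.

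In the 4 MEF and pre-iPS libraries the members had few reads. Their median was 3 and 2 reads in the MEF libraries and 5 and 5 in the pre-iPS libraries. All 72 together had 227 and 205 reads in MEF and 487 and 479 in pre-iPS cells, against 24550 to 94905 in an iPS library. No read was found for 14 and 15 members in the MEF libraries, and 7 members, among them Rhox13, Naa11, Tdpoz3 and Tdpoz4, had none in either. In pre-iPS cells, 5 members had no read at passage 5, and at passage 25 every member had at least 1. With so few reads, an absent member cannot be told from one at a level of a few reads. The mean pre-iPS value was a median of 0.868% of the iPS mean over the members, with a range of 0.121 to 8.04%, and the mean MEF value a median of 0.334%. At the thresholds, Gm12794, Dmrt1 and Rex2 were just inside with 19.4, 19.4 and 19.2 in a pre-iPS library, and Pnma5, Gm14139 and E130309D14Rik just outside with 21.1, 21.1 and 22.1. At the upper threshold, Spag16, Dux and Gm13498 had their lowest iPS values at 100, 103 and 105, and Trim75, Kirrel2 and Arg2 missed it with 99.2, 95.5 and 94.2.

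**Figure D1:**
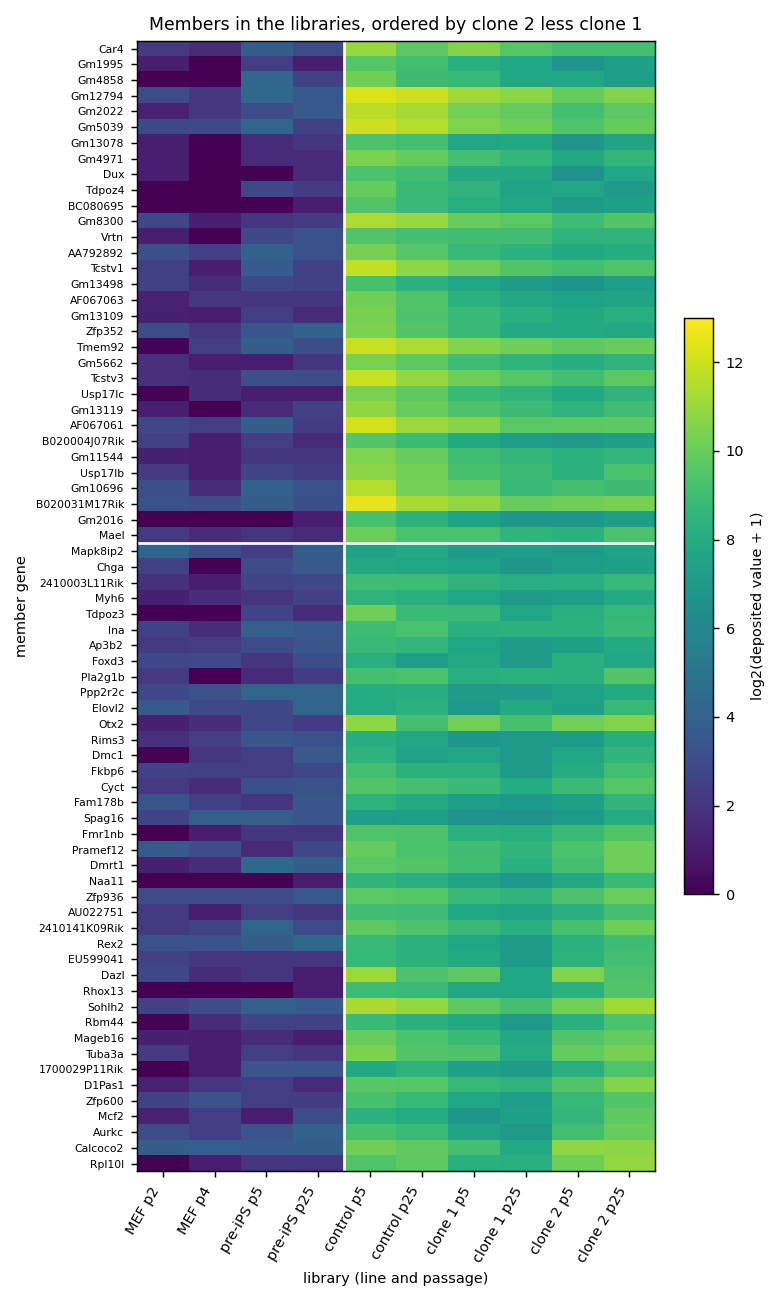
Values of the 72 members (rows) in the 10 libraries (columns), as log2(deposited value + 1) on the colour scale, ordered from the member lowest in clone 2 relative to clone 1 (Car4) to the highest (Rpl10l). The vertical line parts MEF and pre-iPS from iPS libraries and the horizontal line parts the 32 members lower in clone 2 from the 40 higher. The left block is dark by the choice of the members.

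Which gene groups took part was read from lists of known genes. None of the 22 naive pluripotency factors was a member: 21 stood at 100 or more in every iPS library, and all 21 were also at 20 or more in a pre-iPS library. Nanog, for example, had a mean of 330 in pre-iPS cells and Zfp42 one of 6306. Prdm14, a regulator of naive pluripotency and germ cell fate, came nearest, with 14.3 and 7.68 in pre-iPS cells, but had 84.2 in clone 1 at passage 25. Dppa2, Dppa4 and Dppa5a were likewise above the limit in pre-iPS cells, with means of 154, 73.7 and 2959. Of 43 transcripts associated with embryonic stem cells, 4 were members: Calcoco2, an autophagy receptor, Fmr1nb, Ina, a neuronal intermediate filament protein, and Pla2g1b, a secreted phospholipase.

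Of the 60 germline genes in the table, 9 were members, 27 were under 100 in an iPS library and 24 were at 20 or more in pre-iPS cells or MEF. The 9 were Dazl, an RNA-binding protein of germ cells, Sohlh2 and Dmrt1, transcription factors, Dmc1, a recombinase of meiosis, Mael and Fkbp6, of the piRNA pathway, Rpl10l, a ribosomal protein gene of the testis, Tuba3a and Mageb16. Of the 20 genes of the 2-cell stage in the table, Zscan4 apart, 11 were members: Zfp352, Tcstv1, Tcstv3, AF067061, Usp17lb, Usp17lc, Tmem92, Gm13109, Gm5662, Gm2022 and Gm8300. Of the other 9, 4 fell short in an iPS library, among them Arg2 and Usp17ld, and 5 exceeded the limit in pre-iPS cells, as did Usp17le with a mean of 29.6 there. None of 22 oocyte genes and none of 359 solute carriers was a member. Of 52 genes in X-linked multicopy families, Rhox13 and Mageb16 were members, and of 398 zinc finger genes Zfp352, Zfp600 and Zfp936. Predicted genes and Riken clones made up 20 of the 72. Of the remaining members, Aurkc is a kinase of meiosis, D1Pas1 a helicase gene of the testis, Cyct the cytochrome c of the testis and AU022751 (Ezhip) an inhibitor of EZH2. Otx2, a factor of primed epiblast, was the only one of 5 primed epiblast and mesoderm markers among the members.

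Some members lay close together in the genome. On GRCm38, where 71 of the 72 could be placed with GENCODE M21, 25 lay within 500 kb of another member, in 7 clusters. The largest, on chromosome 12 from 87514316 to 88324026, held Gm8300, Gm1995, Gm2016, Gm2022, Gm5662 and Gm5039, 6 of the 9 genes tested in that interval. On chromosome 13 from 119827961 to 120318178 stood AF067063, Tcstv1, B020031M17Rik, AF067061 and Tcstv3, 5 of 7 genes tested. On chromosome 4 from 143551700 to 144408464 stood BC080695, Gm13078, Gm13109, Gm13119 and Pramef12, 5 of 10, which belong with Gm12794 and B020004J07Rik to the PRAME-like family (RefSeq names Gm12794 Pramel19, Gm13078 Pramel24 and Gm13109 Pramel16). Tdpoz3, Tdpoz4 and Gm10696 formed a cluster on chromosome 3. Several of these clusters hold related copies of 1 family, as do the Usp17l genes. How similar the copies are was not measured, so how reads were split between them is uncertain. Members of 1 cluster were for that reason not taken as independent of each other.

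Per kilobase of exon, the mean level over the 6 iPS libraries ran from 22.4 to 3513 with a median of 268. The 10 highest were Gm2022 at 3513, B020031M17Rik at 2491, Tcstv3 at 1923, Gm12794 at 1782, Gm11544 at 1746, AF067061 at 1293, Gm5039, Tcstv1, Rpl10l and Tmem92. Apart from Rpl10l they are genes that were low in both rNetrin-1-derived clones, described next. The lowest were Spag16, Rims3, Mapk8ip2, Myh6 and Ap3b2, at 22.4 to 41.7, genes known mainly from cilia, neurons and heart muscle.

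Although every member was on in every iPS library, their levels varied widely among these. The ratio of the highest to the lowest iPS library had a median of 4.82 over the members and ran from 1.79 to 10.4. Over 11972 genes with 100 or more in each iPS library the median was 1.36. 2410003L11Rik, Mapk8ip2, Ppp2r2c, Ina and Vrtn varied least, at 1.79 to 2.02. Dazl, Aurkc, Mcf2, Calcoco2 and Gm4858 varied most, at 7.42 to 10.4.

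The rNetrin-1-derived clones were set against the control line to ask whether the members reached the same level in these particular clones. An effect of rNetrin-1 cannot be told apart here from differences between clones. Across both clones together 69 of the 72 members were lower than in the control, with a median log2 fold change of −0.78, beside −0.007 over all 17075 genes tested. Limma called 10 members lower, meaning an adjusted p (Benjamini-Hochberg) below 0.05 with a log2 fold change of at least 1 in size, against 1.12% of all genes. They were Zfp352, Tcstv3, AF067063, AA792892, Gm2022, Gm4971, Gm11544, Gm12794, Gm13078 and Gm13109. For 38 members, all 4 clone libraries lay below both control libraries, a pattern found in 11.1% of all genes.

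Zfp352, a zinc finger gene of the 2-cell embryo (chromosome 4, 90218820 to 90225702), had values of 1403 and 746 in the control at passages 5 and 25, 454 and 243 in clone 1 and 247 and 230 in clone 2. All 4 clone libraries were below both control libraries. Over both clones its log2 fold change came to −1.86 (limma adjusted p = 0.0378, SE 0.39). Tcstv3 (chromosome 13, 120316878 to 120318178) stood at 3780 and 1951 in the control, 1110 and 770 in clone 1 and 530 and 847 in clone 2. Here too the lines of the clones did not overlap the control, and the log2 fold change was −1.79 (limma adjusted p = 0.0192, SE 0.31). AF067063, its neighbour in the same cluster, fell most, from 1177 and 695 in the control to 320 and 226 in clone 1 and 188 and 194 in clone 2. Its log2 fold change was −1.99 (limma adjusted p = 0.0153, SE 0.33). In a fit over the 6 iPS libraries alone AF067063 still passed, but Zfp352 and Tcstv3 did not.

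Gm12794 (chromosome 4, 101940407 to 101943183), of the PRAME-like family, had the highest mean of all members, 2587 over the iPS libraries. It stood at 5109 and 4006 in the control, 2272 and 1703 in clone 1 and 956 and 1475 in clone 2. Both clones were below the control without overlap and clone 2 was below clone 1, with a log2 fold change of −1.56 over both (limma adjusted p = 0.0404, SE 0.33). Gm11544 (chromosome 11, 94845358 to 94846092), annotated as an unprocessed pseudogene beside Tmem92, had 1410 and 1008, then 509 and 385, then 317 and 373. It was the member with the lowest adjusted p (log2 fold change −1.61, SE 0.23, limma adjusted p = 0.00961). Tmem92 had a log2 fold change of −1.54, also without overlap, but did not pass (SE 0.54, limma adjusted p = 0.178). The MEF values, whose spread enters the SE, were 1.19 and 1.06 for Gm11544 and 0.0903 and 4.17 for Tmem92. Of the 20 genes of the 2-cell list, limma called 9 lower, 4 of them members (Zfp352, Tcstv3, Gm2022 and Gm13109), and the 11 that are members had log2 fold changes of −1.86 to −1.53. Dux itself, which has no position in the annotation used, had 618 and 520 in the control, 231 and 226 in clone 1 and 103 and 223 in clone 2. Its libraries did not overlap either, but it did not pass the test in clone 2 (log2 fold change −1.89, limma adjusted p = 0.126). The Zscan4 genes, left out by name, had the same order, with 5472 and 4342 for Zscan4c in the control, 2143 and 1698 in clone 1 and 892 and 1276 in clone 2.

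**Figure D2:**
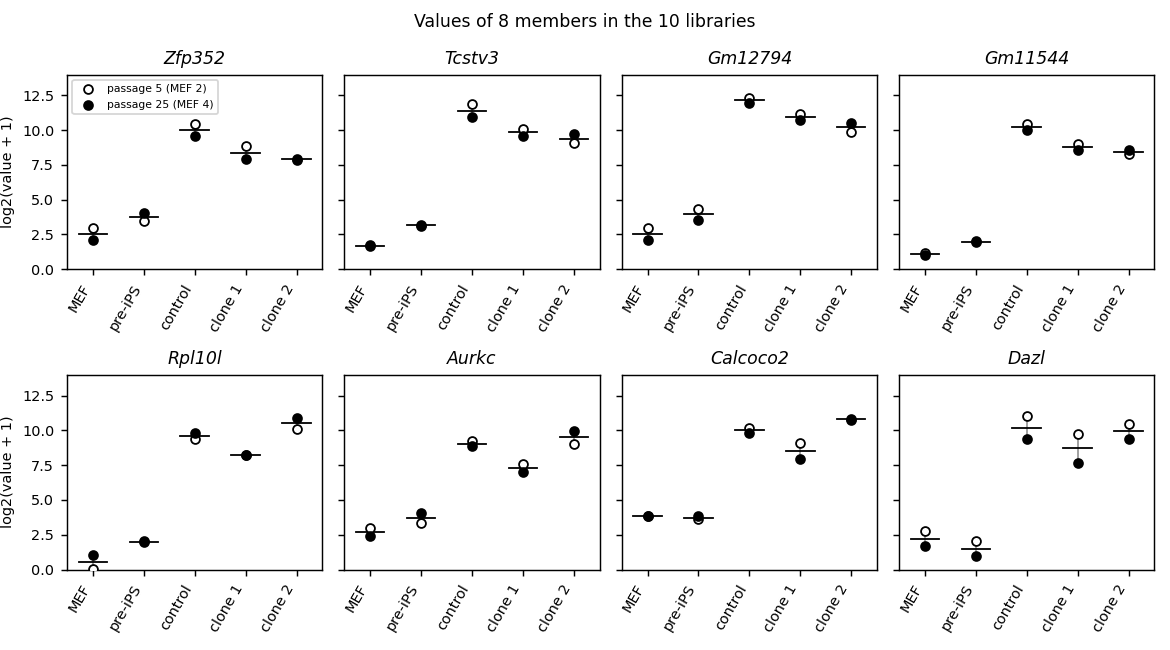
Values of 8 members as log2(value + 1) in the 10 libraries, with open points for passage 5 (passage 2 in MEF), filled points for passage 25 (passage 4 in MEF) and a bar at the mean of the 2 libraries of a line. In the upper row (Zfp352, Tcstv3, Gm12794, Gm11544) both clones lie below the control, and in the lower row clone 2 is above clone 1 in Rpl10l, Aurkc and Calcoco2, while Dazl falls from passage 5 to passage 25 in every iPS line.

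Set separately against the control, the clones differed in which members were low. In clone 1 all 72 members had a negative log2 fold change against the control, with a median of −1.26 and a range of −1.75 to −0.21. Only Gm11544 was called lower (log2 fold change −1.43, SE 0.26, limma adjusted p = 0.0352), 1 member of 72 beside 0.638% of all genes. Both clone 1 libraries lay below both control libraries for 66 members, a pattern seen in 24.2% of all genes. Related lists with few or no members also had negative medians in clone 1, of −0.51 over 22 naive factors, −0.63 over 43 embryonic stem cell transcripts, −0.74 over 58 germline genes tested, −1.13 over 3 Dppa genes and −1.19 over 40 genes of X-linked multicopy families. Whether the members differ from these lists was not tested. In clone 2 the median was −0.55, 52 members were negative and the range was wide, from −2.24 in AF067063 to 1.06 in Mcf2. Limma called 13 members lower, beside 1.31% of all genes: the 10 called over both clones and BC080695, Gm5039 and Tdpoz4. Both clone 2 libraries were below both control libraries for 39 members, beside 21.4% of all genes. These contrasts share the control libraries, so they are not independent of each other.

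The counts of calls depended on the control libraries. Without the control library of passage 5, in which Zfp352, Tcstv3 and AF067063 had their highest values, limma called 0 members in each contrast with the control, although the members' median log2 fold change was −0.68 for the clones together, −0.95 for clone 1 and −0.48 for clone 2. With all libraries, 35 members were lower at an unadjusted p under 0.05 over both clones, 49 in clone 1 and 32 in clone 2. The share of all genes at that unadjusted p was not counted for any contrast, so such counts cannot be set against it. For the clones together the count was 3 without the control library of passage 25, 6 and 2 without clone 1 at passage 5 and 25, and 2 without clone 2 at passage 5. For clone 2 it was 0 without clone 2 at passage 5, 3 without clone 2 or the control at passage 25, and 7 and 8 without clone 1 at passage 5 and 25. For clone 1 it was 0 without the control or clone 1 at passage 25 or without either MEF library, and 2 without either clone 2 library. Calls among all genes were not counted for the fits with a library left out. With whole reads and the count models, more members passed. Over both clones edgeR called 29 and DESeq2 30, for clone 1 18 and 40, and for clone 2 27 and 30. Of all 17075 genes they called 387 and 511, 283 and 515, and 465 and 670. With passage as a replicate block limma called 27, 24 and 28 members, beside 564, 490 and 711 of all genes.

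**Figure D3:**
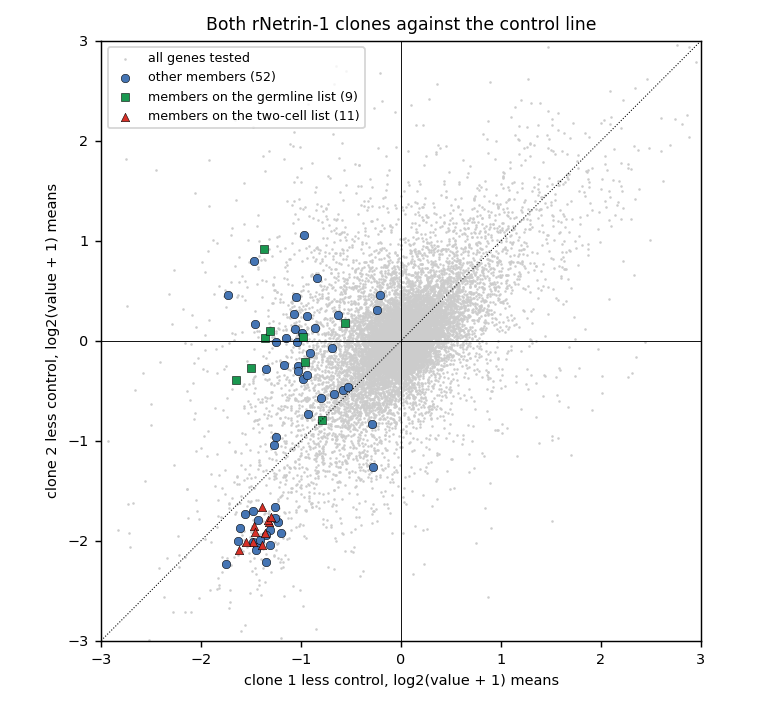
Difference from the control of the mean log2(value + 1) in clone 1 (horizontal) and clone 2 (vertical), for all genes tested (grey) and the 72 members. Axes end at 3 in both directions and the dotted line marks equal differences. Members on the 2-cell list (triangles) lie together at the lower left, from −1.62 to −1.30 in clone 1 and −2.10 to −1.66 in clone 2, and 8 of 9 germline members (squares) lie above the dotted line.

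Set directly against each other, the clones differed in both directions over the members. In clone 2 less clone 1, 32 members were negative and 40 positive, a split by sign made after the values were seen. The values ran across it without a gap, from −0.01 in Mael to 0.07 in Mapk8ip2, and the signs of the medians follow from the split. The 32 had a median of −0.50 and ran from −0.98 to −0.01, and limma, edgeR and DESeq2 called 0 of them. In limma no member was lower in clone 2 at an unadjusted p under 0.05. Their median against the control in clone 2 was −1.90, and all 11 members of the 2-cell list were among them. The 40 had a median of 1.0 and a highest value of 2.29, and their median against the control in clone 2 was 0.01. Of the 9 germline members, 8 were among the 40, Mael being the exception at −0.01. Clone 1 lay below clone 2 without overlap for 27 members, beside 22.3% of all genes, and clone 2 below clone 1 for 19, beside 20.5%, so the latter share is close to that of genes in general.

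Limma called 3 members higher in clone 2 than in clone 1, beside 0.714% of all genes: Rpl10l, Calcoco2 and Aurkc. Lists with few or no members also had positive medians and calls: limma called 5 of the 22 naive factors (median 0.74), 6 of 43 embryonic stem cell transcripts (0.65), 3 of 58 germline genes (0.70) and 10 of 40 genes of X-linked multicopy families (1.37). Rpl10l (chromosome 12, 66283379 to 66284401) had 300 and 295 in clone 1 and 1104 and 1925 in clone 2, beside 672 and 884 in the control. Control libraries lay between those of the clones, without overlap (log2 fold change of clone 2 over clone 1 2.29, SE 0.39, limma adjusted p = 0.0334). Calcoco2 (chromosome 11, 96099326 to 96111964) had 551 and 248 in clone 1, 1180 and 897 in the control and 1856 and 1719 in clone 2, in the same order. Its log2 fold change was 2.27 (limma adjusted p = 0.0245, SE 0.34). Aurkc (chromosome 7, 6995300 to 7003091) had 193 and 130 in clone 1 and 530 and 993 in clone 2, with the control inside the range of clone 2 or just below it, at 600 and 466. Its log2 fold change was 2.19 (limma adjusted p = 0.0422, SE 0.40). Without clone 1 or clone 2 at passage 25 limma called 0 members, and without any 1 of the other libraries 1 or 2. The median over all members, 0.21, was −0.01 without clone 2 and 0.01 without clone 1 at passage 25, and 0.44 and 0.41 without them at passage 5. With all libraries, 20 members were higher in clone 2 at an unadjusted p under 0.05, but the share of all genes was not counted. DESeq2 called 15 members and edgeR 3, beside 435 and 193 of all genes.

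The rest of the 40 did not pass the test. Sohlh2 had 2572 and 1888 in the control, 877 and 564 in clone 1 and 1220 and 2295 in clone 2. Clone 1 was below both other lines, whose libraries overlapped (clone 2 over clone 1, limma adjusted p = 0.135). D1Pas1 had 787 and 765, then 400 and 351, then 721 and 1531, and Mcf2, an exchange factor on the X chromosome, 314 and 250, then 117 and 172, then 385 and 886. The 5 members on the X chromosome, AU022751, Fmr1nb, Mageb16, Mcf2 and Rhox13, were all among the 40, at 0.93 to 2.03 in clone 2 less clone 1. The median of the 647 X-linked genes tested was 0.163, and that of the 864 genes tested on chromosome 8, which holds no member, was 0.169. The 40 were split off by this same difference, so their median of 1.0 is no comparison for these 5. Whether the X-linked members differ from the others was not tested. Otx2, also lower in clone 1 than in clone 2 without overlap, had 1748 and 551 in the control, 1190 and 602 in clone 1 and 1210 and 1506 in clone 2. Both clones lay within the range of the control. Car4, a carbonic anhydrase, was the member lowest in clone 2 relative to clone 1, at 1552 and 773 in clone 1 and 553 and 555 in clone 2 (log2 fold change −0.98, limma adjusted p = 0.375).

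Passages 5 and 25 were compared within the iPS lines to ask whether the members held their level in culture. Over the 3 lines, with the line as a block, limma called 1 member, Dazl, lower at passage 25, beside 0.808% of all genes, and 52 of the 72 had a negative difference with a median of −0.11. The sign of this median rested on the lines taken in: it was 0.07 without either control library, 0.1 without either clone 1 library and −0.51 without either clone 2 library. Dazl (chromosome 17, 50279395 to 50293636) fell from 2133 to 657 in the control, from 851 to 204 in clone 1 and from 1440 to 668 in clone 2. The decrease was seen in each line and came to −1.62 on the log2 scale (limma adjusted p = 0.0226, SE 0.18). Without any single library of the control or clone 1 limma called 0 members, and without either clone 2 library it called 10. With all libraries, edgeR and DESeq2 called 1 member each, beside 222 and 246 of all genes. In limma 10 members were lower at an unadjusted p under 0.05, a count with no share of all genes beside it.

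Line by line, the members did not move together. At passage 25, 64 of the 72 were lower in the control and 62 in clone 1, with median log2 differences of −0.49 and −0.51, and 8 were lower in clone 2, where the median was 0.59. Over all genes 54.0, 54.0 and 51.0% were lower. In 52 members the value was lower in the control and in clone 1 and higher in clone 2, a pattern found in 13.5% of all genes. They included 10 of the 11 members of the 2-cell list and 7 of the 9 germline members. Tcstv3 is an example, with differences of −0.95 for the control, −0.53 for clone 1 and 0.68 for clone 2, and Sohlh2 another, with −0.45, −0.64 and 0.91. With 1 library per passage in each line, this difference between lines was not tested.

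**Figure D4:**
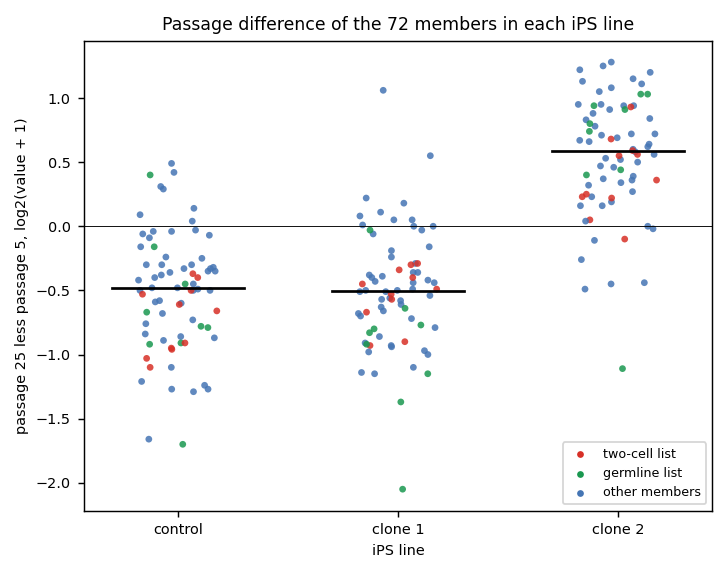
Passage 25 less passage 5, in log2(value + 1), for each of the 72 members in the 3 iPS lines, with the median as a bar (−0.49 for the control, −0.51 for clone 1, 0.59 for clone 2). Members on the 2-cell and germline lists are coloured, and most points lie below 0 in the control and clone 1 and above 0 in clone 2.

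The promoters of the members were poor in CpG as a whole but of more than a single kind. RefSeq windows could be matched to 50 members and 13267 of all genes tested. The median was 7 CpG in 300 bases over the members and 19 over all genes. It was 2 in the matched members that were lower in clone 2 than in clone 1, 15 of 32, and 12 in those that were higher, 35 of 40. The 5 matched members of the 2-cell list had a median of 1, and the 8 germline members one of 17.5. Several windows belong to copies of 1 family, as with Gm13078, Gm13109 and Gm13119, so they are not independent.

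**Figure D5:**
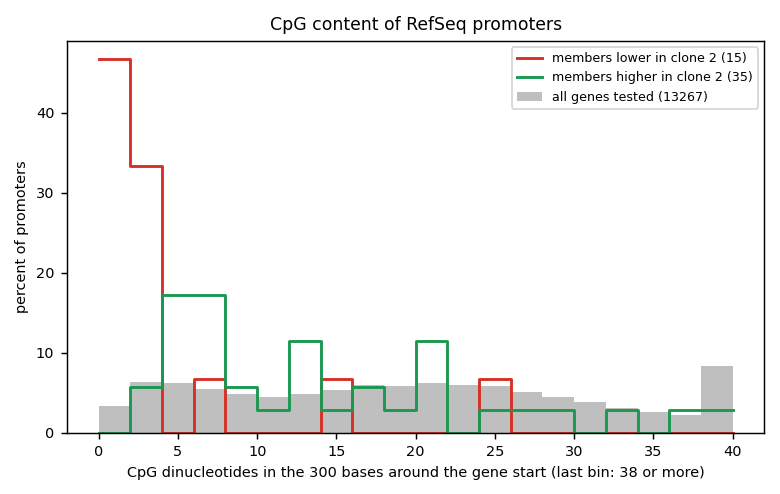
Share of promoters, in percent, by the number of CpG in the 300 bases around the gene start, for 13267 genes tested (grey bars), 15 members lower in clone 2 than in clone 1 (red line) and 35 members higher (green line). The red line is highest at 0 to 3 CpG, with a median of 2, and the green line spreads further, with a median of 12.

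Motifs were searched for on both strands of the same windows. The octamer ATGCAAAT was in 2.00% of the members and 1.57% of all promoters, and the E-box CACGTG in 10.0% and 9.57%. The E2F motif GCGGGAA was in 4 of the 50 windows of members, among them that of Rpl10l, and in 7.75% of all. GGGCGTGG, a motif of Klf factors, was in 4.00% and 9.04%, and TCAAGGTCA, a motif of the nuclear receptor Esrrb, in 0 of the 50 and 0.264% of all. With 50 windows these shares differ by a few promoters, and no match says only that these letters are not in the window.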

How the data were processed

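The authors deposited 1 table of 18901 genes in 10 libraries as a normalised signal: edgeR pseudo-counts, that is read counts per gene brought to a common library size. The submitters' processing notes name FastQC, CASAVA 1.8.2, TopHat2 2.0.8b, HTSeq 0.5.3p9, edgeR and mm10; the annotation and strand setting of the counting are not given in the sources used here. Whole reads were recovered for 100% of the values in every library (within 0.05 of a whole number).

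Members were taken by the thresholds given in the report, less the names the rule leaves out (Y-linked genes, Zscan4 and others). Members, lists and the genes named were chosen with earlier results of these data known. Genes named were all list members, the extremes of level per kb and of the ratio among iPS libraries, those called, those in clusters and those nearest a threshold. Otx2, Sohlh2, D1Pas1, Mcf2 and Car4 as examples were chosen after their values were seen.

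The 17075 genes that reached a value of 10 in 2 or more libraries were compared as log2(value + 1) with limma 3.58.1 (eBayes with a trend, R 4.3.3), with 1 mean per line over all 10 libraries and Benjamini-Hochberg adjustment over all genes; for passage, the 6 iPS libraries were fitted with line as the block. This scale understates fold changes of low values. The tests were tried on simulated data. On the recovered reads, edgeR 4.0.16 (quasi-likelihood, TMM) called 387, 283, 465, 193 and 222 genes for both clones, clone 1 and clone 2 against the control, clone 2 against clone 1 and passage, and DESeq2 1.42.0 called 511, 515, 670, 435 and 246, beside 360, 240, 413, 165 and 160 in limma. Other alternatives were another pseudocount, filter, threshold, normalisation, set of libraries or replicate block, and leaving out each library. Labels give the passages as 5 and 25 in each line, and libraries of the same passage deviated together across genes (mean correlation 0.353, 0.235 to 0.504, over 6 pairs of lines). Promoter windows and newer gene names are from RefSeq (GRCm38.p6), positions from GENCODE M21 on GRCm38. The counting may have used another annotation.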

Additional observations from a re-analysis of the deposited data

Results flagged for a closer look

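In 52 of the 72 members the value at passage 25 was below that at passage 5 in the control line and in clone 1 and above it in clone 2. Of all genes tested, 13.5% showed this pattern. With 1 library per passage and line, the difference between the lines was not tested.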

How the results depend on the processing

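The number of members rests on the thresholds: 44 genes passed with under 10 in place of under 20, 124 with 50 or more in place of 100 or more, and 40 with 200 or more. For both clones against the control, 10 members were called by limma, 27 with a pseudocount of 5, 6 with 0.5, 26 after quantile normalisation, 29 by edgeR and 30 by DESeq2. Over the 6 iPS libraries alone limma also called 10, but Zfp352, Tcstv3, Gm13078, Gm13109 and Gm4971 were not among them (limma adjusted p of 0.0528 to 0.0847). For clone 1 the count was 1, and it was 11 with a pseudocount of 5, 9 after quantile normalisation, 0 over the 6 iPS libraries alone, 18 by edgeR and 40 by DESeq2. For clone 2 it was 13, and 25 with a pseudocount of 5, 7 with 0.5, 24 after quantile normalisation, 27 by edgeR and 30 by DESeq2. Between the clones it was 3, and 1 with a pseudocount of 0.5, 0 over the 6 iPS libraries alone and 15 by DESeq2. For passage it was 1, and 2 over the 8 iPS and pre-iPS libraries. Calls among all genes were counted only for the main limma fit, edgeR, DESeq2 and the fit with passage as a replicate block. The other counts of members, those with 1 library left out included, have no share of all genes beside them.

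With passage as a replicate block the counts were 27, 24 and 28 for both clones, clone 1 and clone 2 against the control, and between the clones 3. Passage without the line as a replicate block gave 0, where 10 members were lower at an unadjusted p under 0.05 with the block and edgeR and DESeq2 called 1 each. Leaving out 1 library at a time gave 0 to 12 calls for both clones, 0 to 2 for clone 1, 0 to 11 for clone 2, 0 to 2 between the clones and 0 to 10 for passage. A fit that leaves a line with 1 library assumes that it varies like the others. No member called changed direction in these settings, but the members' median turned for passage, from −0.11 to a range of −0.51 to 0.1 with 1 library left out, and between the clones, from 0.21 to a range of −0.01 to 0.44. The cause of the changes in the counts was not tested. With 2 libraries per line these contrasts rest on few libraries, and in MEF and pre-iPS cells most members had too few reads for a level to be read.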
